A study of Mus musculus with 6 samples.

Results

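Motile cilia are beating projections of the airway surface, and in the lung they are carried by multiciliated cells of the conducting airways, which move mucus towards the throat. Each cilium is built around an axoneme, a cylinder of doublet microtubules with a central pair, on which dynein arms generate sliding, radial spokes and the central apparatus regulate it, and nexin links hold it together. FOXJ1, with factors of the RFX family, switches on the genes for these parts. The genes described here are 42 components and regulators of that machinery, listed by symbol for what is known of them. The list was made with earlier results of these data known. Genes were kept where the counts of all 6 libraries summed to 20 or more. All 42 were kept, of 26890 genes in the table. Dnai1 and Dnai2 are listed there as Dnaic1 and Dnaic2, the names under which RefSeq holds them with Dnai1 and Dnai2 as synonyms.

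The libraries came from lung cells of C57BL/6 wild-type mice at day 3, after saline (3 libraries) or the complement protein C1q at 20 µg per mouse (3 libraries) had been given into the trachea. The sources used here give no age or sex for the animals. Titles and treatment text name C1q for all 6 samples, and the treatment label alone sets the saline group apart. Lungs were digested with Liberase and DNase, the middle layer of a Percoll gradient was taken, and libraries of transcript 5′ ends were made from poly(A) RNA. The study asked how the lung transcriptome differs after C1q, and the question here is what the motile cilium genes did. Total counts were 2227619 to 3650793 per library, so that 3 counts correspond to 0.830 to 1.35 CPM (counts divided by the TMM-scaled library size). In mixed cells, fewer multiciliated cells and less RNA per multiciliated cell cannot be told apart, and nothing in the labels says whether each library was a separate animal, so p-values measure the spread between these libraries, which may be technical.

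None of the motile cilium genes passed the test between C1q and saline. Of the 41 that entered the edgeR fit, 0 had an adjusted p under 0.05, with adjusted p between 0.602 and 0.992, while 2 had an unadjusted p under 0.05, and DESeq2 and limma-voom also called 0. Over all 13473 genes tested, 4 were called, all higher after C1q, which is 0.0297% of genes. The fold changes leaned downwards: 34 of the 41 (82.9%) had a negative log2 fold change, against 51.8% of all genes tested, and the median was -0.23, against -0.01 over all genes. These genes were read in the same 6 libraries and may come largely from the same cells, so they cannot be taken as independent of each other. They were also listed with earlier results of these data known, so the share depends on the list. In a wider list of motile cilium genes, described below, 30 of 49 were negative, with a median of -0.13. Without saline replicate 3 the number with a negative value was 25 of 41 (61.0%, against 49.3% of all genes) and the median -0.08. Dnah7a, at 45 counts in all, did not pass the filter on low counts.

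How much of a change could have been missed differed between genes. The log2 fold changes ran from -0.77 for Dnah2 to 0.29 for Tekt4, and the 95% intervals reached from -1.79 to 1.24. For 17 of the 41 the whole interval lay between -1 and 1, so that a 2-fold change in either direction fell outside it, while for 21 it reached below -1. The median total was 161 counts over the 6 libraries, which gives a counting error of 19.3% for a single library, against 2.60% for Tppp3 and 36.5% for Dnah7a. The SD between libraries, as a share of the mean, was larger than the gene's own counting error in saline for 31 of the 42 genes and in C1q for 29. For Dnah6 in saline it was 60.9%, against a counting error of 12.5%, and for Tppp3 15.7%, against 2.60%.

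**Figure D1:**
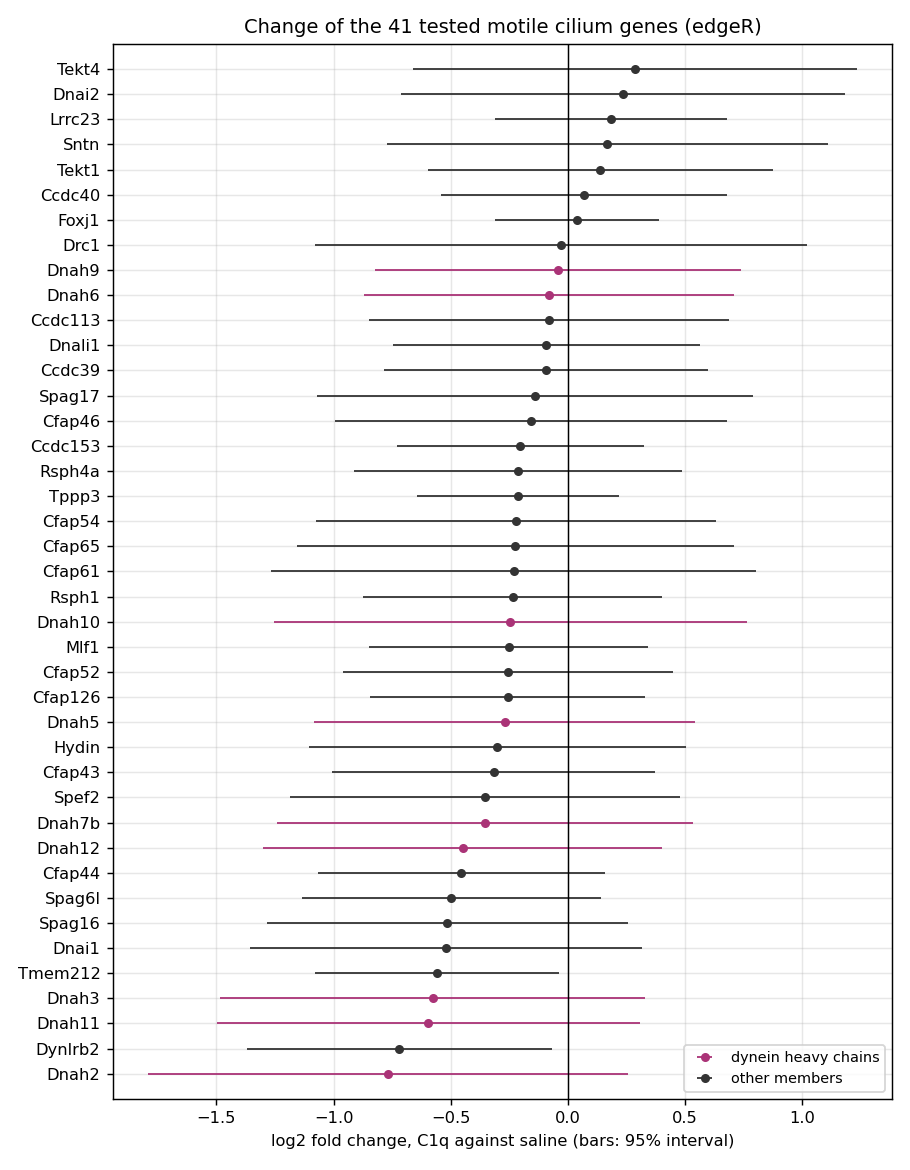
Log2 fold change of C1q against saline (horizontal axis) for the 41 tested motile cilium genes, with 95% intervals from the edgeR fit, 3 libraries per group. Points run from -0.77 to 0.29, 34 lie below 0, and the dynein heavy chain genes (purple) have wide intervals that all include 0.

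Foxj1, the transcription factor that switches on motile cilium genes, was the steadiest of the 42 genes by the ratio of its highest to its lowest library. Saline replicates 1 to 3 had 37.6, 40.5 and 41.8 CPM, and C1q replicates 1 to 3 had 44.8, 42.3 and 35.7 CPM. The C1q libraries held both the highest and the lowest value, and the groups overlapped. Means were 39.98 ± 2.16 and 40.93 ± 4.73 CPM (SD, n = 3 each), the log2 fold change was 0.04 ± 0.16 (SE), and its 95% interval ran from -0.31 to 0.39. The highest library was 1.26 times the lowest, the smallest such ratio among the 42 genes, and the sign of the difference changed when saline replicate 1 or C1q replicate 1 was left out (-0.00116 and -0.0303). Besides Foxj1, 15 other regulators of multiciliation and centriole amplification were followed, of which 9 could be tested and 0 were called, 4 with a negative and 5 with a positive log2 fold change (median 0.23). Mcidas, which starts the multiciliated programme, had 1 to 7 counts per library. Ccno, needed for centriole amplification, had 3.97 ± 1.20 CPM in saline and 6.80 ± 1.83 CPM in C1q (log2 fold change 0.76 ± 0.39, edgeR adjusted p = 0.623), and Myb, which acts early in the same programme, had 7.01 ± 0.50 and 10.1 ± 1.34 CPM (0.52 ± 0.29, adjusted p = 0.636). Of RFX genes, Rfx2 and Rfx3 were at -0.32 ± 0.25 and -0.35 ± 0.31, and Trp73, which encodes a transcription factor of the same programme, at -0.42 ± 0.36.

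The start sites of these genes were searched for the sequences that RFX and forkhead factors are known to bind, because both control cilium genes. RefSeq promoters were matched for 35 of the 42 genes (GRCm38.p6), and the 250 bases before each start were read on both strands. The core of the RFX X-box, GTTGCC, occurred in 16 of the 35 (45.7%), against 11.8% of all 27025 genes with a promoter of that length. The forkhead core GTAAACA occurred in 3 of 35 (8.57%), against 3.54%. Elements of general promoters were near their usual share or under it, with CCAAT in 14 of 35 (40.0%, against 37.5%) and TATAAA in 3 of 35 (8.57%, against 14.3%). An X-box palindrome was searched in a fixed form, GTTNCC and GGNAAC (N is any base) with a spacer of 1, 2 or 3 bases. It was found in 0 of the 35, against 0.263%, 0.444% and 0.0666% of all genes. Looser forms of the X-box are not covered by this pattern, so a full X-box may have been missed. A forkhead variant, TGTTTG, was in 6 of 35 (17.1%, against 18.0%). These are part of a larger set of motifs that was looked through, chosen after the search, and a match describes the letters and not a bound site.

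Of the 16, 5 are shown, 5′ to 3′ on the gene's strand and without bases that a GENCODE exon covers. Dynlrb2 and Ccdc153 are short transcripts described below, and Mlf1, Sntn and Spag16 hold more than a single match. Capitals mark GTTGCC and GTAAACA in either orientation. The stretches are chr8:116504765-116504973 for Dynlrb2, chr9:44240427-44240675 for Ccdc153, chr3:67373847-67374096 for Mlf1, chr14:13670626-13670875 for Sntn and chr1:69826720-69826969 for Spag16, all on the plus strand of GRCm38.p6.
Dynlrb2: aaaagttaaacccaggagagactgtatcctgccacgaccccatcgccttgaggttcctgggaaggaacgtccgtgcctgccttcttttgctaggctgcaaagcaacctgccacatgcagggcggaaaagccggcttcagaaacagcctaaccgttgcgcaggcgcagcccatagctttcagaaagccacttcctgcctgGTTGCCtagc
Ccdc153: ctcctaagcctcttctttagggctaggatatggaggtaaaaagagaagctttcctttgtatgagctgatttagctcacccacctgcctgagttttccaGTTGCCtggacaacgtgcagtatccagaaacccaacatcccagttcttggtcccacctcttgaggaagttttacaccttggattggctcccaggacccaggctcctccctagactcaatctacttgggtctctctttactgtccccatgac
Mlf1: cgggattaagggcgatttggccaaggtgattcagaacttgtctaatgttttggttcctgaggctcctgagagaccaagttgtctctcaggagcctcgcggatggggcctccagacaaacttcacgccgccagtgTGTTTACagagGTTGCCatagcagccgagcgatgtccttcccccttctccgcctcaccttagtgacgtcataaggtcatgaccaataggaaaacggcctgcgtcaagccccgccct
Sntn: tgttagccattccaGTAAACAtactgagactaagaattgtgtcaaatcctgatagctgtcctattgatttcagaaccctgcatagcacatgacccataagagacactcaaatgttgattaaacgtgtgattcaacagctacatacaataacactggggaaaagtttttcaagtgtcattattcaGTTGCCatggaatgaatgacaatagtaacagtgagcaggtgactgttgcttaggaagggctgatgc
Spag16: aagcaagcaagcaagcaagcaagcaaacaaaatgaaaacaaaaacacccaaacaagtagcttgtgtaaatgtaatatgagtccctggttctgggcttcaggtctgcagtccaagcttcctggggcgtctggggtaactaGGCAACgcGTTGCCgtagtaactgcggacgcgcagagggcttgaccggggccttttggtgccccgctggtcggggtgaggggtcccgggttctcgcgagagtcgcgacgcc
In Mlf1 the forkhead core, read on the opposite strand, and the X-box core ended 109 and 99 bases before the start. In Spag16 the X-box core occurred in both orientations, ending 105 and 97 bases before the start. In Dynlrb2 it ended 45 bases, in Sntn 60 bases and in Ccdc153 146 bases before the start, and in Sntn the forkhead core ended 229 bases before it. All distances are to the RefSeq start. For Dynlrb2 the last base shown lies 42 bases before that start, because the GENCODE gene begins earlier, at chr8:116504974.

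The outer dynein arms drive the beat, and their motor subunits are the heavy chains of Dnah5, Dnah9 and Dnah11. Dnah5 had 23.1, 10.5 and 31.4 CPM in saline replicates 1 to 3 and 11.6, 22.6 and 20.8 CPM in C1q replicates 1 to 3. The C1q values all lay within the range of the saline values (21.7 ± 10.5 and 18.3 ± 5.87 CPM, log2 fold change -0.27 ± 0.37). Dnah11 had 7.72, 11.7 and 20.5 CPM in saline and 5.81, 8.11 and 13.1 CPM in C1q (-0.60 ± 0.41). Dnah9, at -0.04 ± 0.35, was between 6.75 and 13.4 CPM in all libraries. For all 3 the highest library was saline replicate 3. Without it Dnah5 was at 0.072 and Dnah11 at -0.14, and leaving out other single libraries took them as low as -0.58 and -0.93, while edgeR's adjusted p with all libraries ran from 0.692 to 0.984.

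The inner arms, which shape the bend of the beat, are built on other heavy chains, and 6 of their 7 genes here could be tested. Dnah6 had 17.4, 13.4 and 39.97 CPM in saline and 18.3, 22.6 and 26.6 CPM in C1q. Saline replicate 3 stood above the rest, the other saline libraries lay below all 3 C1q libraries, and the log2 fold change was -0.08 ± 0.36 with all libraries and 0.52 without saline replicate 3. Dnah3 had 19.6, 9.72 and 28.8 CPM in saline and 9.13, 9.88 and 21.2 CPM in C1q (-0.58 ± 0.41, from -1.03 without C1q replicate 3 to -0.20 without saline replicate 3). Dnah2 had 6.75, 6.48 and 14.2 CPM in saline and 3.60, 8.82 and 3.61 CPM in C1q, which made its -0.77 ± 0.46 the lowest log2 fold change of the 41 genes (edgeR adjusted p = 0.661, from -1.33 without C1q replicate 2 to -0.31 without saline replicate 3). Dnah7b, Dnah10 and Dnah12 had log2 fold changes of -0.36, -0.25 and -0.45, and again their highest library was saline replicate 3. Dnah7b, Dnah7a and a further copy, Dnah7c, are close paralogues with 157, 45 and 57 counts in all, and reads may have been divided among them.

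Thus all 9 tested dynein heavy chain genes leaned the same way (median log2 fold change -0.36), and all 9 were highest in saline replicate 3. Without that library the median was 0.07 and 4 of the 9 were negative. With all libraries, the 10 heavy chains summed to 109.6, 85.8 and 209 CPM in saline replicates 1 to 3 and to 82.4, 115.7 and 129.6 CPM in C1q replicates 1 to 3.

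Of the 4 smaller dynein subunits, Dnai1 alone was highest in saline replicate 3, by a narrow margin. Dynlrb2, a roadblock-type light chain, had 20.9, 40.5 and 19.0 CPM in saline and 18.0, 16.6 and 13.5 CPM in C1q. All 3 C1q libraries were lower than all 3 saline libraries, but the nearest values, 19.0 and 18.0 CPM, lay close together and saline replicate 2 was far above the rest. Its log2 fold change was -0.72 ± 0.30 (unadjusted p = 0.0336, edgeR adjusted p = 0.602) and -0.30 without saline replicate 2. The intermediate chains Dnai1 and Dnai2, which anchor the outer arm, had -0.52 ± 0.38 and 0.24 ± 0.43 at 2.82 to 8.57 CPM, and the inner arm light chain Dnali1 had -0.09 ± 0.30.

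Among the structural parts, the spacing rulers Ccdc39 and Ccdc40 had log2 fold changes of -0.09 ± 0.31 and 0.07 ± 0.28, and Drc1, of the nexin-dynein regulatory complex, had -0.03 ± 0.48. Drc1 was also the most uneven gene over libraries, from 2.02 CPM in saline replicate 2 to 10.5 CPM in saline replicate 3, but the lowest value rests on only 5 counts. The radial spoke genes Rsph1, Rsph4a and Lrrc23 had -0.23 ± 0.29, -0.21 ± 0.32 and 0.19 ± 0.22, with Lrrc23 between 12.1 and 16.6 CPM throughout. In all 7 genes of the central apparatus the log2 fold change was negative, from -0.52 to -0.14, with 0 called. Spag6l had 11.3, 11.3 and 10.8 CPM in saline and 9.96, 7.41 and 5.87 CPM in C1q, and so was the second gene, with Dynlrb2, whose C1q libraries all lay below saline (-0.50 ± 0.29, edgeR adjusted p = 0.647). These 2 are 4.88% of the 41 genes, against 5.96% of all genes tested. In the other direction, with all C1q libraries above saline, it was 0 of 41, against 8.12%. Spag16 had 15.1, 6.48 and 10.8 CPM in saline and 6.36, 7.76 and 9.03 CPM in C1q, with overlapping groups (-0.52 ± 0.35, and -0.18 without saline replicate 1). Hydin, a very large central pair protein, was at -0.30 ± 0.36, with 19.8 CPM in saline replicate 3 and 6.91 to 13.1 CPM in the other 5 libraries.

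Microtubule-binding genes were led in counts by Tppp3, which encodes a tubulin polymerization-promoting protein. Tppp3 had 595, 619 and 457 CPM in saline and 515, 560.1 and 366 CPM in C1q. The groups overlapped, with the lowest value in C1q replicate 3, and means of 557 ± 87.4 and 480.2 ± 102 CPM (log2 fold change -0.21 ± 0.20, 95% interval -0.64 to 0.22). Leaving out single libraries moved it from -0.34 (without saline replicate 3) to -0.046 (without C1q replicate 3). The gene is known outside ciliated cells too, among them cells of connective tissue, and it took 42.2% to 55.3% of the summed CPM of all 42 genes in each library. Tekt1 and Tekt4, tektins of the doublet wall, had 0.14 ± 0.33 and 0.29 ± 0.43, and Cfap52 and Cfap126, other proteins of the axoneme, had -0.25 ± 0.32 and -0.26 ± 0.27.

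Tmem212, a membrane protein gene known as a marker of ciliated cells, had 40.2, 55.9 and 33.2 CPM in saline and 24.1, 37.4 and 26.2 CPM in C1q. Saline replicate 2 was highest and the groups overlapped at saline replicate 3 and C1q replicate 2. With a log2 fold change of -0.56 ± 0.24 it was, beside Dynlrb2, the only gene of the 41 with an unadjusted p under 0.05 (0.0378, edgeR adjusted p = 0.602), and it was at -0.33 without saline replicate 2. That is 2 of 41 in the lower direction, where 3.94% of all genes had such a p, and 0 of 41 in the higher direction, where 4.22% had. Ccdc153 had 24.8, 41.7 and 28.0 CPM in saline and 33.7, 23.3 and 23.9 CPM in C1q (-0.20 ± 0.24, and 0.055 without saline replicate 2). Mlf1 had 16.1, 24.7 and 16.8 CPM in saline and 20.2, 15.9 and 11.3 CPM in C1q (-0.25 ± 0.27, from -0.48 without C1q replicate 1 to -0.026 without saline replicate 2). Each of these 3 was again highest in saline replicate 2. Cfap44, of the tether that holds inner arms, had 17.0, 15.4 and 26.9 CPM in saline and 14.9, 10.9 and 17.6 CPM in C1q, and was highest in saline replicate 3 (-0.46 ± 0.28, and -0.17 without that library). The remaining genes of this group, Cfap43, Cfap61, Cfap65, Ccdc113 and Sntn, had log2 fold changes between -0.32 and 0.17.

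**Figure D2:**
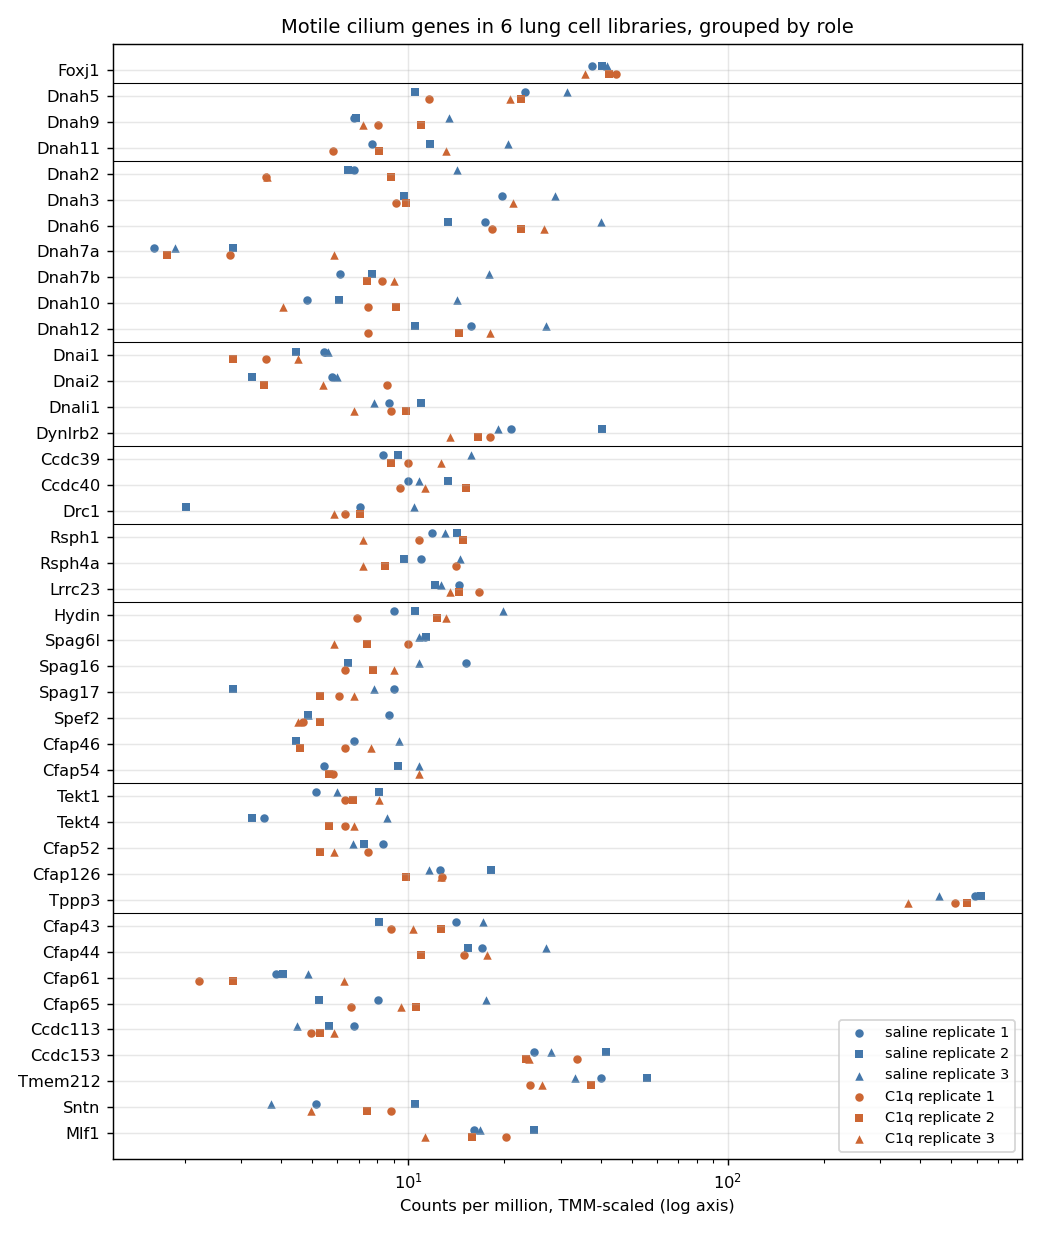
CPM of each of the 42 motile cilium genes (horizontal log axis) in the 3 saline libraries (blue) and 3 C1q libraries (orange), with lines between groups of genes by role. Foxj1 stays within 35.7 to 44.8 CPM, while the blue triangles of saline replicate 3 lie to the right for the tested dynein heavy chains and the blue squares of saline replicate 2 do so for Dynlrb2, Ccdc153, Tmem212 and Mlf1.

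The motile cilium genes thus did not vary as a block over the libraries, and the side on which a gene fell tended to go with the length of its transcript. Their longest spliced transcripts in GENCODE M21 (GRCm38) span 0.53 kb for Dynlrb2 to 15.8 kb for Hydin, with the dynein heavy chains at 12009 to 15637 bases. Of the 12 tested genes over 8 kb, 91.7% were highest in saline replicate 3 and 0% in saline replicate 2. Those 12 include all 9 tested dynein heavy chains, so length and kind of gene cannot be told apart among them. By gene span instead of transcript, 7 genes over 100 kb were no heavy chain. Of these 28.6% were highest in saline replicate 3, against 24.6% of all genes tested. Among tested genes of like span it was 39.2% for 100 to 200 kb and 51.2% for over 200 kb. By transcript, Hydin, Cfap46 and Cfap54 were over 8 kb and no heavy chain. Hydin and Cfap46 were highest in saline replicate 3, and Cfap54 in C1q replicate 3 (10.83 CPM in both of these libraries). Of the 12 up to 2 kb, 8.33% were highest in saline replicate 3 and 58.3% in saline replicate 2. The genes of 2 to 8 kb, 17 in number, fell between, with 41.2% and 11.8%. The limits of 2 and 8 kb were set after the values were seen, and no test was made of them.

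The same lean was present across the whole table, in smaller size. Among 12737 tested genes with a unique GENCODE symbol, 66.5% of the 334 with a spliced transcript over 10 kb were highest in saline replicate 3, against 7.57% of the 2720 genes up to 2 kb. Saline replicate 2 was highest for 3.59% of the longest and 37.3% of the shortest. Per library, a deviation was taken as log2(CPM + 0.5) minus its mean over the 6 libraries. In saline replicate 3 the median deviation was 0.93 for the 9 dynein heavy chain genes and 0.33 for all genes over 10 kb. In C1q replicate 1 it was -0.66 and -0.15, and in saline replicate 2 it was -0.30 and -0.17. The lean thus did not separate the groups. In saline replicate 1 the medians were -0.31 and -0.04, in C1q replicate 2 0.06 and -0.01, and in C1q replicate 3 0.15 and 0.09. Saline replicate 3 was also the library with the most genes detected (23259, against 20520 to 21749 in the others). The cause of this lean was not tested. With each library's trend on transcript length entered as an offset in the edgeR fit, the median log2 fold change of the dynein heavy chains was -0.21, that of the 41 genes -0.19, and 0 of the 41 were called.

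**Figure D3:**
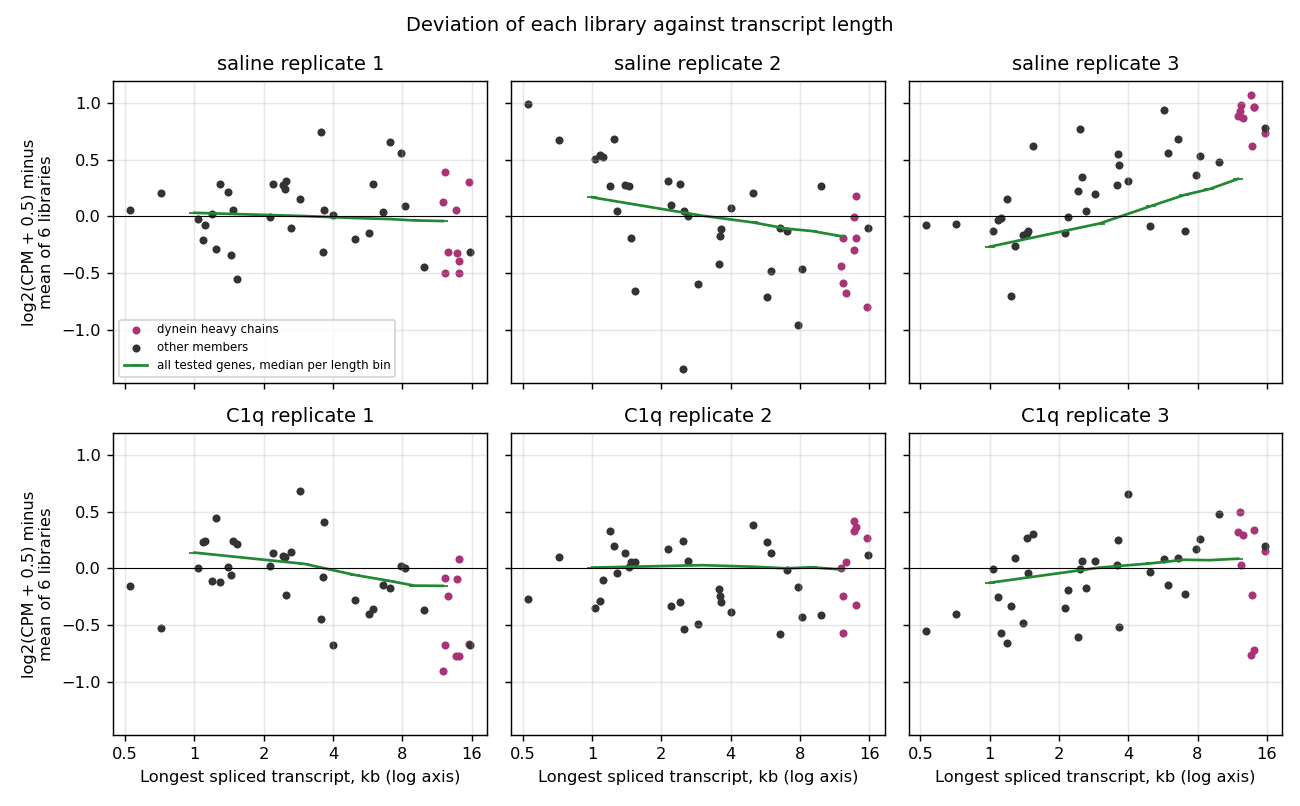
Deviation of each library from the mean of 6 on the log2(CPM + 0.5) scale (vertical) against the longest spliced transcript in kb (horizontal log axis), a panel per library, for the 41 tested motile cilium genes (points) and the median of all tested genes in 6 length bins (green line). The dynein heavy chains (purple) have a median of 0.93 in saline replicate 3, -0.30 in saline replicate 2 and -0.66 in C1q replicate 1. The green line rises with length in saline replicate 3 and falls with length in saline replicate 2 and C1q replicate 1.

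Summed over genes, the level per library was lower on average after C1q. All 42 genes together came to 1076, 1123 and 1084 CPM in saline and 952, 1022 and 826 CPM in C1q, a log2 ratio of -0.23. Without Tppp3 the other 41 came to 482, 504 and 627 CPM in saline and 437, 462 and 460.4 CPM in C1q, and without the heavy chains as well the other 31 came to 372, 418.2 and 417.6 CPM and 355, 346 and 331 CPM. In each of these sums the 3 C1q libraries lay below the 3 saline libraries. The sums share most of their genes, from a list made with earlier results known, and are not separate results. Of single genes tested, 5.96% had all C1q libraries below saline, and no such share was taken for sums. The 10 heavy chains alone, given above, overlapped. No test was made of sums over chosen genes.

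A wider list of 74 motile cilium genes, none of them among the 42, had a median nearer to 0. Of these, 72 were in the table and 49 were tested, 30 with a negative log2 fold change and 0 called, with a median of -0.13. Their sum was 477 to 558 CPM in saline and 448 to 501 CPM in C1q, with overlap. The genes with the smallest p were Fam216b (8.93 ± 1.20 CPM in saline, 2.80 ± 1.30 CPM in C1q, log2 fold change -1.59 ± 0.40, edgeR adjusted p = 0.405) and Ak7, an adenylate kinase of motile cilia (14.96 ± 2.43 and 8.47 ± 0.41 CPM, -0.82 ± 0.25, adjusted p = 0.522). Intraflagellar transport genes, which build every cilium and not the motile ones alone, had a median of -0.08 over 27 tested, 16 of them negative and 0 called. The smallest p there was that of Hspb11 (-0.61 ± 0.24) and Ift172 (-0.45 ± 0.24), with edgeR adjusted p of 0.602 and 0.625.

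Markers of the other airway and lung cells moved in their own ways beside these genes, and their part in the results was not tested. The 14 club and secretory markers summed to 15790, 29165 and 11754 CPM in saline and 12233, 15896 and 9538 CPM in C1q, so that saline replicate 2 held the most, as it did for Dynlrb2 and Tmem212. This was not particular to secretory markers, because the alveolar type 2 and type 1 sums were highest in saline replicate 2 as well (45622 and 2905 CPM). Scgb1a1, the main secretion of club cells, was also highest there (13911 ± 8025 and 8063 ± 2240 CPM, -0.79 ± 0.36, edgeR adjusted p = 0.606), as was Scgb3a1 (-1.32 ± 0.44, adjusted p = 0.536). Of the 12 tested, 7 were negative and 5 positive in log2 fold change (median -0.07, 0 called), among them Cyp2f2 at -0.02 ± 0.21 and Ltf at 0.64 ± 0.38, and most of the sum is Scgb1a1. For all 9 general epithelial markers the log2 fold change was positive (median 0.28, 0 called), among them Epcam (82.0 ± 14.5 and 99.3 ± 6.90 CPM), Cdh1 (0.35 ± 0.14) and Krt18 (0.30 ± 0.15). Their sum was 913 to 1102 CPM in saline and 1117 to 1295 CPM in C1q. Of the 7 basal cell markers Trp63 had 0 to 3 counts per library and only Krt15 entered the test (1.73 ± 1.74 and 13.9 ± 9.36 CPM, 3.03 ± 0.66, adjusted p = 0.281). Sums of the remaining marker lists were 23874 to 45622 CPM in saline and 32497 to 35187 CPM in C1q for alveolar type 2 cells, 2298 to 2905 and 2437 to 2663 for alveolar type 1 cells, 25.8 to 60.8 and 40.9 to 61.9 for mesothelium, 972 to 998 and 1338 to 1531 for fibroblasts, 2259 to 2540 and 1929 to 2440 for endothelium, and 302 to 385 and 290.3 to 394 for leukocytes. A sum need not stand for every gene in it. Among mesothelial markers Msln had a log2 fold change of 1.03 ± 0.32 and Upk3b one of -0.89 ± 0.37. All 5 fibroblast markers were positive, with Col1a1 and Col1a2 at 0.99 ± 0.20 and 0.86 ± 0.16 but Pdgfra at 0.08 ± 0.15.

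**Figure D4:**
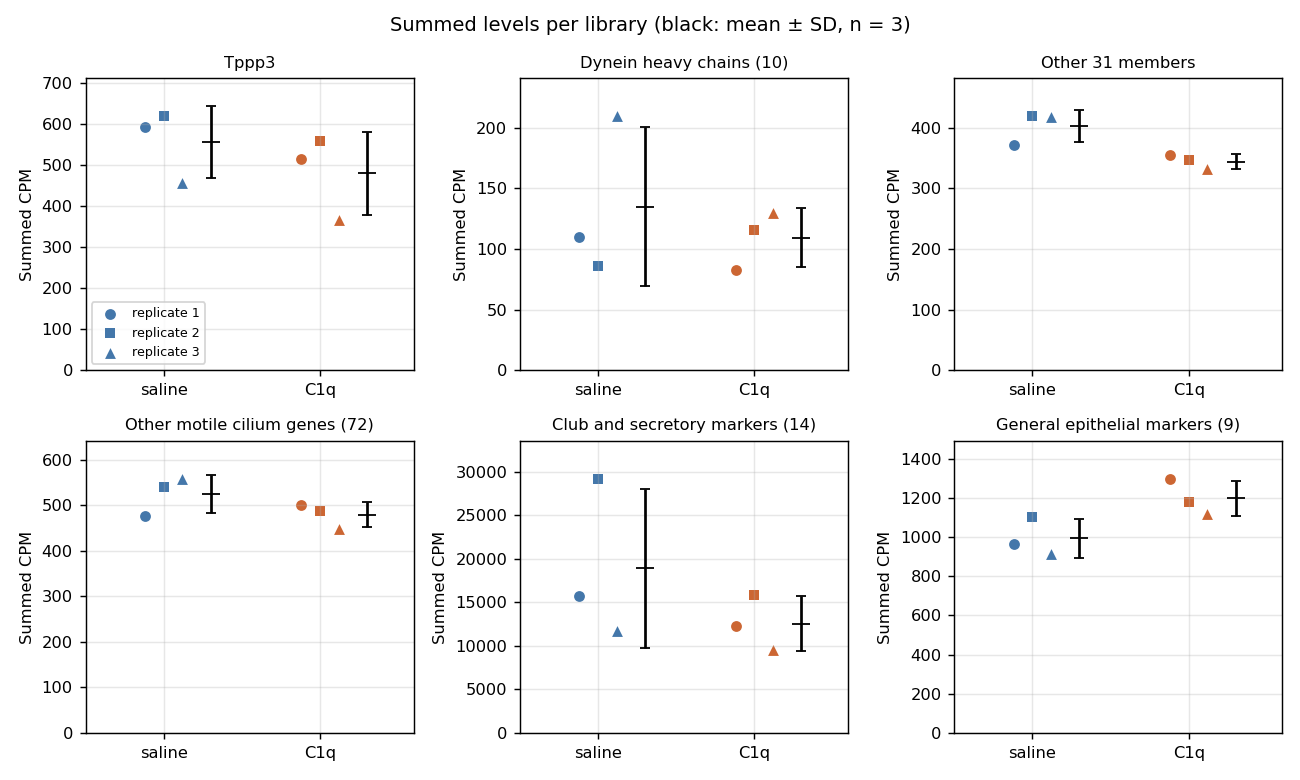
Summed CPM per library (vertical axes from 0) for Tppp3, the 10 dynein heavy chains, the other 31 motile cilium genes and 3 comparison lists, with black marks for mean ± SD over 3 libraries. The heavy chains are highest in saline replicate 3 (209 CPM), the secretory markers in saline replicate 2 (29165 CPM), and the 31 other genes lie at 372 to 418.2 CPM in saline and 331 to 355 CPM in C1q.

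Positions on GRCm38 from GENCODE M21 show where counts could be shared with other genes. The 42 genes span 4.0 kb (Tppp3) to 898.2 kb (Spag16), all protein-coding, and 15 of them overlap an antisense or protein-coding gene on the other strand. Foxj1 lies at chr11:116330704-116335399, Tppp3 at chr8:105467493-105471526, Tmem212 at chr3:27866066-27896368 and Dynlrb2 at chr8:116504974-116515915, and none of these 4 has such an overlap. Dnah6 at chr6:73017606-73221651 overlaps the antisense gene Gm20560, Dnah2 at chr11:69420809-69549110 overlaps Dnah2os, Dnah3 at chr7:119922671-120095280 overlaps Lyrm1, and Dnah11 at chr12:117877982-118199043 overlaps Cdca7l. Overlap was taken over whole gene spans and not over exons or 5′ ends, and the sources used here do not give the strand handling. Whether reads from such partners were counted for the heavy chains was therefore not tested. Spag6l, at 162 counts, has the paralogue Spag6, which had 4.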

How the data were processed

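The deposited values are counts, a whole number for each gene symbol in each library, which the authors had not normalized. The build GRCm38 and the tools cutadapt 2.1.0 and Bowtie2 2.4.2 are listed per the submitters' processing notes. The sources used here do not give the counting step, annotation, strand handling or any use of molecular identifiers. Libraries read transcript 5′ ends, per the labels' protocols. Total counts were 2227619 to 3650793 per library. Groups follow the treatment label, and replicates are numbered in order of deposition, which pairs nothing. Counting noise was exceeded in the comparison of each of the 15 pairs of libraries.

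After filterByExpr (13473 of 26890 genes kept) and TMM scaling, C1q was compared with saline by edgeR 4.0.16 (two-sided quasi-likelihood test, no covariate), with Benjamini-Hochberg adjustment over all genes kept and a threshold of 0.05. A standard error is the absolute log2 fold change over the square root of F. The test was checked on simulated data. Members and lists were chosen with earlier results of these data known. Genes given in every library are Foxj1, the 8 members with the smallest p and the 10 with the most CPM. From each other list the 2 genes with the smallest p and Scgb1a1, Trp63, Epcam and Mcidas could be named. Other single values, the length classes and the motifs were chosen after values were seen. Lengths come from GENCODE M21. Alternatives were other scalings and filters, DESeq2 1.42.0, limma-voom (limma 3.58.1), leaving out each library and, chosen after seeing the data, an offset for transcript length (loess, span 0.5).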

Additional observations from a re-analysis of the deposited data

How the results depend on the processing

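The number of motile cilium genes called was 0 under all alternatives run, with 41 tested, or 42 with no filter on low counts. Their smallest adjusted p over these alternatives was 0.194, for the fit with no filter. Over all genes, 4 calls with edgeR became 373 with no filter, 32 with DESeq2, 14 with the offset for transcript length (chosen after seeing the data) and 0 (without saline replicate 1) to 10 (without saline replicate 3) when a library was left out. The cause was not tested. The median log2 fold change of the motile cilium genes stayed negative throughout, from -0.31 (without saline replicate 2) to -0.08 (without saline replicate 3), and the log2 ratio of their sums ran from -0.30 to -0.14. Of the 14 genes given in every library, 10 kept their direction in all alternatives. Most of these 10 were included for having the smallest p in these same libraries, which makes a kept direction likely. The count is therefore no measure of stability. Of the genes not chosen by p, Tppp3 and Mlf1 kept their direction, while Foxj1, Dnah5, Dnah6 and Ccdc153 did not. Dnah6 turned to 0.046 with limma-voom, to 0.058 with the length offset and to 0.52 at most (0.0619 without C1q replicate 1) when a library was left out, its lowest value being -0.34. Foxj1 turned to -0.00883 with the offset and ran from -0.030 to 0.13 without single libraries (-0.00116 without saline replicate 1), Dnah5 from -0.58 to 0.072 and Ccdc153 from -0.41 to 0.055. The dynein heavy chains had a median of -0.58 (without saline replicate 2) to 0.07 (without saline replicate 3), and the other 32 genes of -0.22 to -0.12. No paired analysis was possible because the replicate numbers were given in order of deposition and the labels share none between groups. The median total was 161 counts over 6 libraries, and the spread between libraries exceeded counting error for 31 of the 42 genes in saline and 29 in C1q.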
